A study of Mus musculus with 8 samples.

Results

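The 9 genes Cs, Idh3a, Idh3b, Idh3g, Ogdh, Dlst, Suclg1, Fh1 and Mdh2, which encode enzymes of the mitochondrial tricarboxylic acid (TCA) cycle, were followed in mouse lung tumors with and without an inactivating edit of Setd2. The genes were taken by name, and all 9 were found among the 48709 genes of the count table. mRNA was sequenced from 8 bulk tumors, 4 of the group K-Ctrl and 4 of the group K-Setd2KO. Both groups came from mice of the K model on a mixed strain background, in which the lentiviral vector LentiCRISPRv2Cre, given through the airway, delivers Cre recombinase (which starts the tumors), Cas9 and a guide RNA. The guide targeted GFP, a gene that mice lack, in K-Ctrl and Setd2, whose protein places the trimethyl mark on lysine-36 of histone H3, in K-Setd2KO. The labels give no age. The design text describes frozen tumors while the extraction text speaks of cell lines, a difference that was not resolved, and nothing says that the tumors of a group came from separate mice. The p-values therefore measure only the spread between these samples.

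The TCA cycle joins the acetyl group of acetyl-CoA to oxaloacetate, makes citrate, and returns to oxaloacetate through a ring of reactions in the mitochondrial matrix. Its dehydrogenases pass electrons as NADH and FADH2 to the respiratory chain, which uses them to drive ATP synthesis. The cycle also supplies citrate for lipid synthesis and keto acids for amino acids, so growing tumor cells both drain and refill it.

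Sequencing depth lay between 5806599 counts (K-Setd2KO replicate 4) and 21290402 counts (K-Ctrl replicate 3), and members had 232 to 4994 counts in a tumor. Counting error alone was 1.42% to 6.57% of a member's count. The Setd2 level in CPM (counts relative to the TMM-adjusted library total) averaged 140 ± 8.81 for the controls and 136 ± 15.5 for K-Setd2KO tumors (mean ± SD, n = 4 per group). Its log2 fold change was -0.05 with an SE of 0.115 and an edgeR adjusted p of 0.824, and since a guide edits bases and need not lower the count, this value does not check the labels. By sex-linked expression, 1 K-Ctrl and 3 K-Setd2KO tumors were female. Of 9 alveolar type 2 markers 1 rose and 1 fell (median log2 fold change 0.00). With Sftpc among them, they summed to 55762 to 74738 CPM in the controls and 61264 to 90562 CPM in K-Setd2KO. Of 7 epithelial markers 2 rose and 0 fell (median log2 fold change 0.44), where 4.97% of all tested genes rose and 7.74% fell. Epcam stood at 196 to 324 CPM in the controls and 391 to 559 CPM in K-Setd2KO. Of 15 marker lists for other cell types, 13 had a median below 0, and neutrophil (0.54) and brown fat (0.03) lists did not. Of their 88 markers tested 22 fell and 0 rose, beside the 7.74% and 4.97% of all tested genes. The lists include alveolar type 1, club and ciliated cells, which are epithelial too, with medians of -1.10, -0.78 and -1.20. Leukocyte markers (6 of 8 fell) summed to 1067 to 1903 CPM in K-Ctrl and 559 to 783 CPM in K-Setd2KO, and macrophage markers (6 of 8 fell) to 561 to 1746 and 199 to 360 CPM. Endothelial markers (2 of 8 fell) summed to 537 to 1972 and 207 to 551 CPM. In bulk tumors, fewer cells of a type and less RNA per cell cannot be told apart, and the part of these shifts in the member values below was not tested.

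All 9 members were tested. Suclg1 rose in K-Setd2KO, 1 of 9 members (11.1%) where 4.97% of the 14929 tested genes rose, and 0 of 9 fell where 7.74% of tested genes fell, by edgeR's quasi-likelihood test at an adjusted p of 0.05. At an unadjusted p under 0.05 there were 2, Suclg1 and Idh3b, where 29.9% of all tested genes had such a p. DESeq2 called Suclg1 higher and also Idh3b lower, where it called 6.60% of its tested genes higher and 10.6% lower, and limma voom called Suclg1 alone. The tumors of the 2 groups did not overlap for 2 of 9 members (22.2%), against 20.3% of all tested genes. The median log2 fold change of the members was 0.00, with 5 above 0 and 4 below, and that of all tested genes was 0.03.

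**Figure D1:**
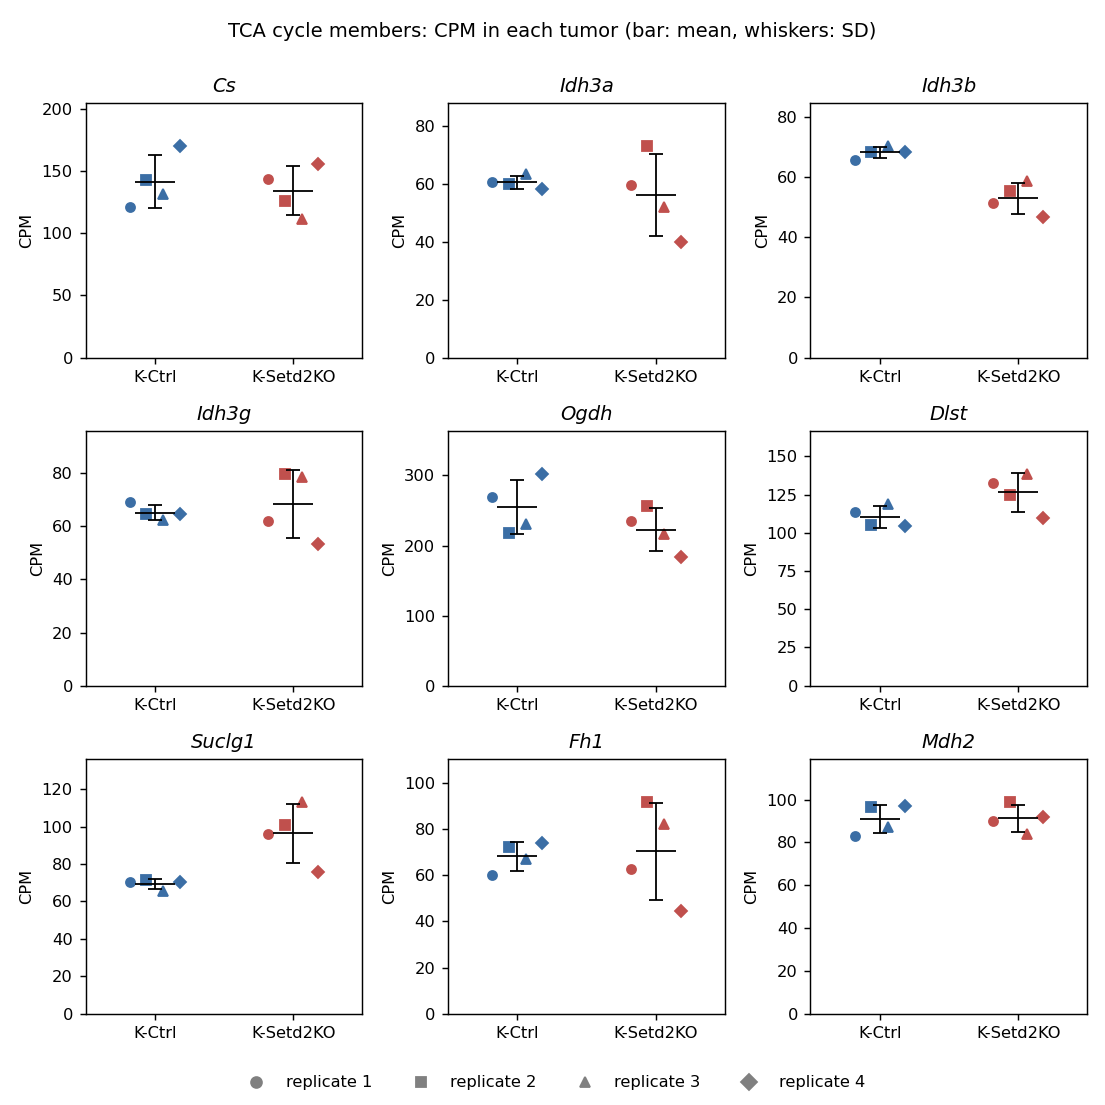
Level of each member in CPM (vertical axes, from 0) in the 4 K-Ctrl (blue) and 4 K-Setd2KO (red) tumors. Symbols mark the replicate number, bars the mean and whiskers the SD. Suclg1 lay between 65.6 and 71.7 CPM in K-Ctrl and between 75.6 and 113 CPM in K-Setd2KO, and Idh3b between 65.7 and 70.4 and between 46.6 and 58.5 CPM.

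The results turned on Suclg1 and on the pair Idh3b and Idh3g, so the 250 bases before the RefSeq start of these 3 genes are shown. By the gene spans of the count table, given with each gene below, 123 bases of the Suclg1 window and 96 of the Idh3b window lie inside the gene, and 0 of the Idh3g window. The sequences are those of RefSeq on GRCm38.p6, in which 8 of the 9 members had an entry (Idh3a had none), and each is printed 5′ to 3′ on the strand of its gene. Capitals mark matches on either strand to motif letters of regulators known for mitochondrial or hypoxia genes, namely CCGGAAG (ETS family, GABP), AAGATGGCG (YY1), GCGC and GCGC apart by 2 bases of any kind (NRF1), TCAAGGTCA (ERR family) and ACGTG (HIF), and no match was found in the Suclg1 and Idh3b windows. The Suclg1 window lies at chr6:73248255-73248504 (plus strand), that of Idh3b at chr2:130284452-130284701 (minus strand) and that of Idh3g at chrX:73786898-73787147 (minus strand).
Suclg1: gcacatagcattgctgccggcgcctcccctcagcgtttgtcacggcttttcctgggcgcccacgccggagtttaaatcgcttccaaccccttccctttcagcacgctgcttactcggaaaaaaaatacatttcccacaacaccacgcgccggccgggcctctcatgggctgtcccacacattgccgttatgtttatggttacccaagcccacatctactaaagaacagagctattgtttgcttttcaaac
Idh3b: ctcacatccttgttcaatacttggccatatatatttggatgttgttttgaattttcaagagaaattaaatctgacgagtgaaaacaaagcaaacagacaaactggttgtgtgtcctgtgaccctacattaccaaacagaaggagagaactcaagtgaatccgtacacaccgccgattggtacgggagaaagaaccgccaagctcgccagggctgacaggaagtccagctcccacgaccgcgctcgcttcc
Idh3g: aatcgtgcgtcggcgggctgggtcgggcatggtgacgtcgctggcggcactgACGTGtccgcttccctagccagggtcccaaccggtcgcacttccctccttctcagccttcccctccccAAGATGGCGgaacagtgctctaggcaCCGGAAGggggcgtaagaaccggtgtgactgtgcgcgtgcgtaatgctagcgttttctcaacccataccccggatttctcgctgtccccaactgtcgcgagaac
The Idh3g window held the HIF letters at -198, the YY1 letters at -130 and the ETS letters at -104, counted from the RefSeq start. Among all 32851 mouse windows of this length, 16.6% held the HIF letters, 0.606% the YY1 letters and 6.91% the ETS letters. The NRF1 letters stood in 4.98% and the ERR letters in 0.387% of windows, and in 0 members. Ogdh, with 6 listed windows, was the other member with the HIF letters. A match describes the letters and is not a site.

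The cycle opens with Cs, citrate synthase, which condenses acetyl-CoA with oxaloacetate (chromosome 10, 128337832 to 128362479). It had 121, 142, 132 and 170 CPM in K-Ctrl replicates 1 to 4 and 144, 126, 112 and 156 CPM in K-Setd2KO replicates 1 to 4. The groups overlapped along most of their range, and the highest tumor was a control. The log2 fold change was -0.07 (SE 0.148, adjusted p = 0.773).

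The 3 Idh3 genes encode the subunits of NAD-dependent isocitrate dehydrogenase, which turns isocitrate into 2-oxoglutarate. Idh3a, the catalytic subunit (chromosome 9, 54586511 to 54604661), had 60.5, 59.9, 63.3 and 58.1 CPM in K-Ctrl and 59.6, 73.1, 51.8 and 39.7 CPM in K-Setd2KO. The K-Ctrl tumors lay close together, and the K-Setd2KO tumors spread on both sides of them, with an SD on the log2 scale of 0.37 against 0.05. Its log2 fold change was -0.11 (SE 0.173, adjusted p = 0.719).

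Idh3b, a subunit needed with Idh3a for the active enzyme (chromosome 2, 130279309 to 130284547), had 65.7, 68.3, 70.4 and 68.2 CPM in K-Ctrl and 51.2, 55.2, 58.5 and 46.6 CPM in K-Setd2KO. Every K-Setd2KO tumor lay below every K-Ctrl tumor. The means were 68.1 ± 1.93 and 52.9 ± 5.16 CPM (SD, n = 4 each), a log2 fold change of -0.37 (SE 0.108) with an unadjusted p of 0.00783 and an edgeR adjusted p of 0.0558, which missed the threshold. It passed with DESeq2 (adjusted p = 0.0279), with at least 10 counts required in every tumor (0.0419) and after a length and GC trend was removed (0.0491), and its adjusted p ran from 0.0279 to 0.17 over all alternatives. Idh3b shares 5 bases at its end with Nop56 on the other strand, which had 4276 counts in all against 6794 for Idh3b, and whether counting used the strand is not given in the sources used here.

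Idh3g, the regulatory subunit (chromosome X, 73778963 to 73786897), had 68.9, 64.5, 62.3 and 64.7 CPM in K-Ctrl and 61.8, 79.8, 78.4 and 53.2 CPM in K-Setd2KO. The K-Setd2KO tumors were split, with replicates 2 and 3 above every control and replicates 1 and 4 below every control. The log2 fold change was 0.07 (SE 0.145, adjusted p = 0.783).

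Ogdh and Dlst encode the E1 and E2 components of the 2-oxoglutarate dehydrogenase complex, which makes succinyl-CoA. Ogdh (chromosome 11, 6291633 to 6356642) had 269, 217, 231 and 303 CPM in K-Ctrl and 236, 255.9, 217 and 183 CPM in K-Setd2KO. The ranges overlapped, and its log2 fold change was -0.19 (SE 0.151, adjusted p = 0.425), or -0.0992 without K-Ctrl replicate 4 and -0.12 without K-Setd2KO replicate 4. Dlst (chromosome 12, 85110833 to 85134091) had 113, 105, 119 and 105 CPM in K-Ctrl and 133, 125, 139 and 110 CPM in K-Setd2KO. Only K-Setd2KO replicate 4 lay within the K-Ctrl range, the other 3 lying above it, and the log2 fold change was 0.20 (SE 0.111, adjusted p = 0.272).

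Suclg1, the alpha subunit shared by both forms of succinyl-CoA ligase, which releases succinate and makes ATP or GTP (chromosome 6, 73248382 to 73276911), was the member that rose. It had 70.5, 71.7, 65.6 and 70.1 CPM in K-Ctrl and 95.9, 101, 113 and 75.6 CPM in K-Setd2KO. All K-Setd2KO tumors lay above all K-Ctrl tumors, replicate 4 by the least. The means were 69.5 ± 2.65 and 96.5 ± 15.7 CPM (SD, n = 4 each), a log2 fold change of 0.47 (SE 0.133, unadjusted p = 0.00569, edgeR adjusted p = 0.0469). The call lay just inside the threshold and was lost without each tumor in turn except K-Setd2KO replicate 4, with adjusted p from 0.0258 to 0.131 and log2 fold changes from 0.39 to 0.57. It was also lost with no filter on low counts (adjusted p = 0.0751), with at least 10 counts required (0.0567) and with sex as a term (0.0671).

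Suclg1 lies on chromosome 6, whose 839 tested genes had a median log2 fold change of 0.27. The median shift of chromosome 6 genes from the K-Ctrl mean was 0.33, -0.03, 0.32 and 0.38 on the log2 scale in K-Setd2KO replicates 1 to 4 and between -0.03 and 0.02 in the K-Ctrl tumors. Relative to its chromosome, the log2 fold change of Suclg1 was 0.20. After each tumor's chromosome 6 shift was subtracted, Suclg1 stood at 0.13, 0.57, 0.38 and -0.26 above the K-Ctrl mean in K-Setd2KO replicates 1 to 4. The groups then overlapped, with a difference of 0.20 (two-sided exact permutation p = 0.314). Before the subtraction the Suclg1 shifts were 0.47, 0.54, 0.71 and 0.12 in the same order. The part of the chromosome 6 shift in the Suclg1 difference was not tested. Suclg2, the GTP-forming beta subunit, is on the same chromosome and had a log2 fold change of 0.49 (SE 0.169, adjusted p = 0.0864). Sucla2, the ATP-forming beta subunit on chromosome 14, had 0.01 (SE 0.103, adjusted p = 0.962).

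**Figure D2:**
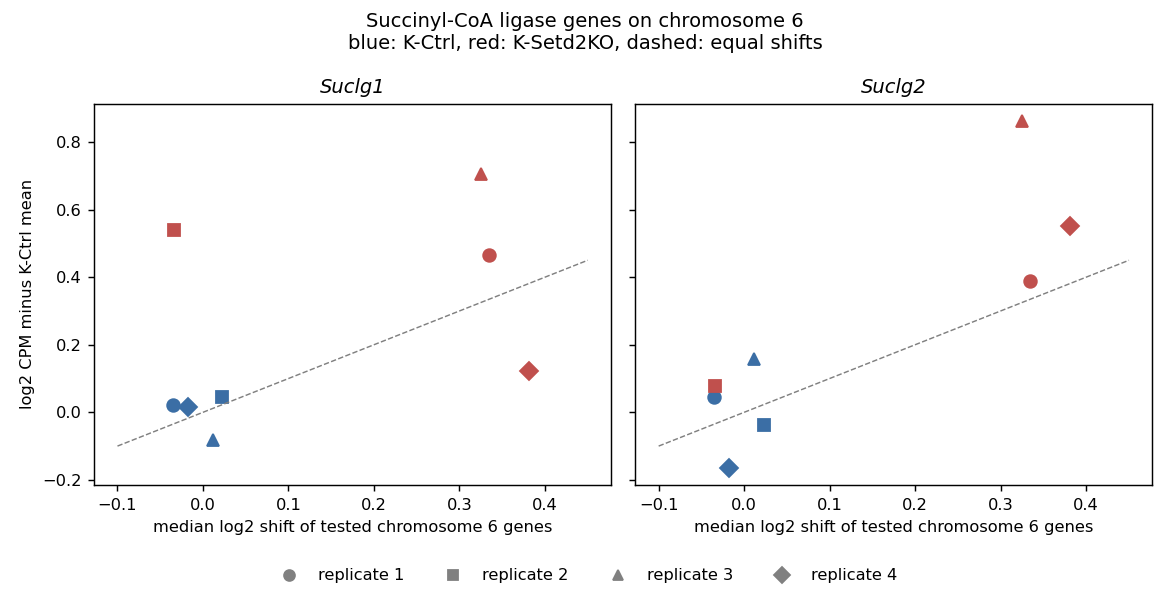
Shift of Suclg1 (left) and Suclg2 (right) from the K-Ctrl mean in log2 CPM, against the median log2 shift of all tested chromosome 6 genes in the same tumor, with K-Ctrl in blue, K-Setd2KO in red and symbols for the replicate number. On the dashed line a gene shifts as much as its chromosome. K-Setd2KO replicate 2 (square) had a chromosome shift of -0.03 with a Suclg1 shift of 0.54, and replicate 4 (diamond) one of 0.38 with 0.12.

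Fh1 is fumarate hydratase, which makes malate from fumarate and is a tumor suppressor in human renal cancer syndromes (chromosome 1, 175600374 to 175625635). It had 60.1, 72.1, 66.9 and 74.2 CPM in K-Ctrl and 62.7, 91.9, 82.3 and 44.7 CPM in K-Setd2KO. The K-Setd2KO tumors lay on both sides of the controls and spread the most of any member, with a log2 SD of 0.46. The log2 fold change was 0.05 (SE 0.208, adjusted p = 0.905). Fh1 overlaps Kmo on the other strand over 5255 bases, with 337 Kmo counts in all against 7690 for Fh1.

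Mdh2, mitochondrial malate dehydrogenase, which closes the cycle by restoring oxaloacetate (chromosome 5, 135778480 to 135790398), had 83.2, 96.4, 87.4 and 96.8 CPM in K-Ctrl and 89.9, 99.1, 83.8 and 92.1 CPM in K-Setd2KO. The groups covered nearly the same range. Its log2 fold change was 0.00 (SE 0.105), with an interval of 2 SE from -0.21 to 0.22 and an adjusted p of 0.984.

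The K-Setd2KO tumors differed more among themselves than the controls for 7 of 9 members, counted as a larger log2 SD, and for 66.0% of all tested genes. For Cs, counted among the 7, both SDs were 0.21. K-Setd2KO replicate 4, the library with the lowest total, was the lowest of 8 tumors for 5 members (Idh3a, Idh3b, Idh3g, Ogdh and Fh1), with a median member shift of -0.29 from the K-Ctrl mean on the log2 scale. K-Setd2KO replicate 2 was the highest of 8 for 4 members (Idh3a, Idh3g, Fh1 and Mdh2), with a median shift of 0.18. The 9 members lie on 9 different chromosomes.

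Per kilobase of exon, Cs, Ogdh and Dlst stood above the other members, with geometric means over the 8 tumors of 48.3, 43.3 and 42.6 RPKM (CPM per kilobase of the deposited exon length). Mdh2 (25.5), Idh3g (24.5), Idh3a (23.9), Fh1 (20.04), Suclg1 (17.6) and Idh3b (17.5 RPKM) followed. The deposited length sums the exons of a gene, 2767 bases for Dlst and 3562 for Mdh2, and can exceed that of the expressed transcript. The order and the steps between genes therefore depend in part on it. The widest step between neighbours was Dlst over Mdh2, 0.74 on the log2 scale and present in all 8 tumors (two-sided exact sign-flip permutation p = 0.00781, the smallest possible, and 0.0625 adjusted over 8 steps). Idh3a over Fh1 was next, at 0.26 (exact p = 0.0313, adjusted 0.125), and the other 6 steps had adjusted p from 0.3125 to 0.9375. No step passed the threshold. A single step, even at the smallest possible p, has an adjusted p of 0.0625, so the threshold cannot decide on it. The genes were also ordered by the same values, which fixed the sign of each step in advance. A small pooled step can hide opposite ones: Suclg1 over Idh3b was 0.01 over all 8 tumors, but -0.40 within K-Ctrl and 0.43 within K-Setd2KO. Suclg1 was the lowest of 9 in K-Ctrl (15.1 ± 0.573 RPKM) and the seventh in K-Setd2KO (20.9 ± 3.40 RPKM, SD, n = 4 each), whereas Idh3b went from 19.9 ± 0.565 RPKM, next to the lowest, to 15.5 ± 1.51 RPKM, the lowest.

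Ratios between partner genes in the same tumor do not depend on library scaling, and 8 were compared by two-sided exact permutation over 70 assignments, whose smallest possible p is 0.0286. Idh3g over Idh3b, subunits of 1 enzyme, was 1.33, 1.197, 1.12 and 1.202 per kilobase in K-Ctrl and 1.53, 1.83, 1.70 and 1.45 in K-Setd2KO. All K-Setd2KO tumors lay above all controls, with a log2 difference of 0.42 (SE 0.091, exact p = 0.0286, adjusted over the 8 ratios 0.114). Suclg1 over Sucla2 was 0.757, 0.753, 0.646 and 0.785 in K-Ctrl and 0.998, 1.00, 1.14 and 0.888 in K-Setd2KO, a log2 difference of 0.45 (SE 0.0959, exact p = 0.0286, adjusted 0.114), again with no overlap. No ratio passed an adjusted p of 0.05. Even these separated ratios, at the smallest possible p, had an adjusted p of 0.114, so this threshold cannot decide on a single ratio. Dlst over Ogdh differed by 0.38 (exact p = 0.0571, adjusted 0.152), with K-Setd2KO replicate 2 inside the K-Ctrl range.

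The other 5 ratios overlapped between the groups. Idh3b over Idh3a differed by -0.23 (exact p = 0.314), with K-Setd2KO replicates 1 and 2 below every control and replicates 3 and 4 within or close to their range. The difference was -0.11 without K-Setd2KO replicate 2 and -0.32 without K-Setd2KO replicate 4. Idh3g over Idh3a differed by 0.19 (exact p = 0.257), or 0.0932 without K-Setd2KO replicate 3 and 0.28 without K-Setd2KO replicate 1. Mdh2 over Mdh1, its cytosolic counterpart, differed by -0.17 (exact p = 0.257). It differed by -0.11 without K-Setd2KO replicate 1 or replicate 3, and by -0.26 without K-Setd2KO replicate 2. Suclg1 over Suclg2, both on chromosome 6, differed by -0.01 (SE 0.209, exact p = 0.943) and Cs over Mdh2 by -0.08 (exact p = 0.514).

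**Figure D3:**
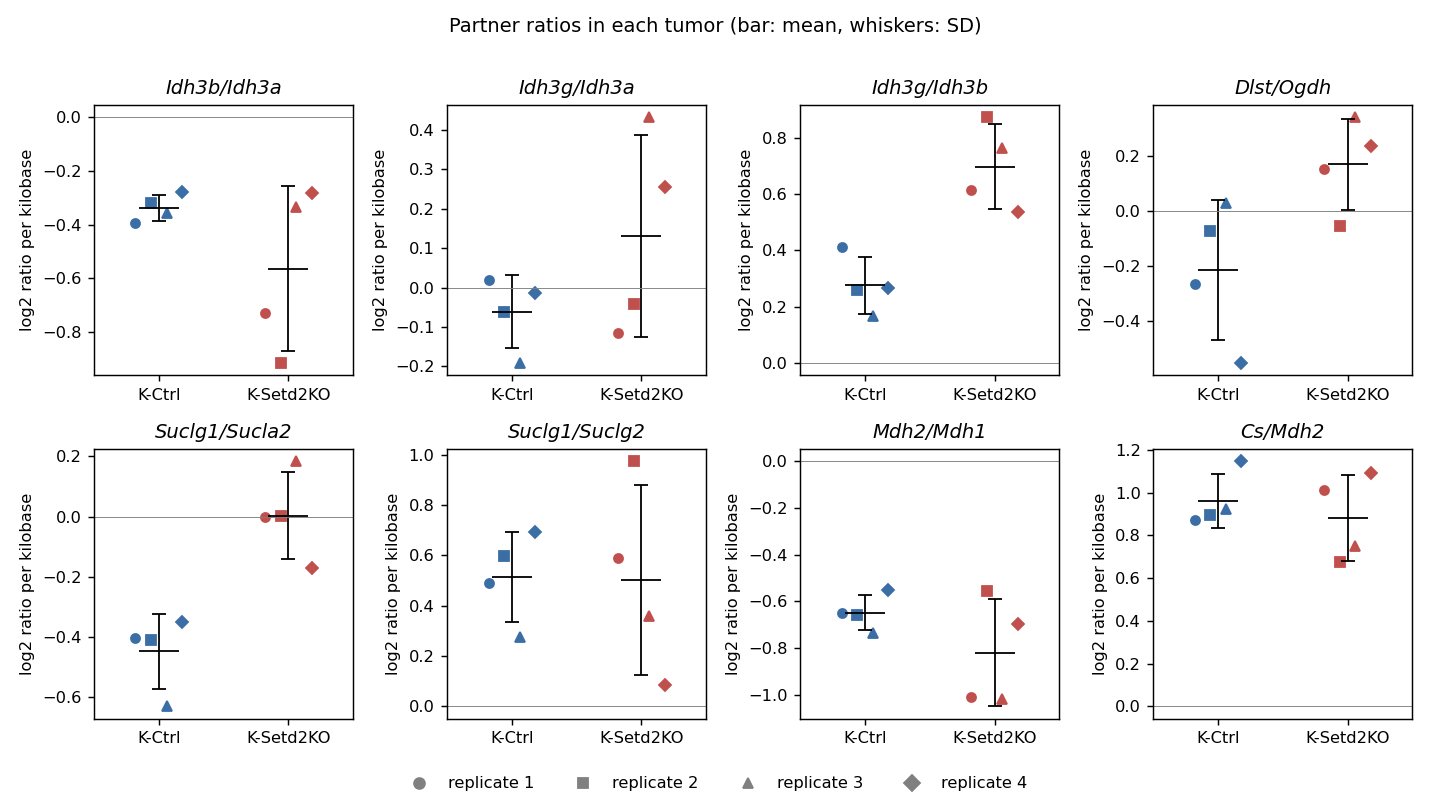
log2 ratio of 2 partner genes per kilobase in each tumor of K-Ctrl (blue) and K-Setd2KO (red), with a panel per ratio and its own axis. Bars are means, whiskers SD, symbols replicate numbers and the grey line equal levels. The groups separate for Idh3g over Idh3b and for Suclg1 over Sucla2, with log2 differences of 0.42 and 0.45.

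Of 12 other genes of the cycle, 10 were tested by edgeR and limma voom and 12 by DESeq2, and 0 passed the threshold in either direction by any of these tools, with a median log2 fold change of 0.00. At an unadjusted edgeR p under 0.05, reached by 29.9% of all tested genes, there was 1, Suclg2, which passed after the length and GC correction (adjusted p = 0.0414) and without K-Setd2KO replicate 2 (0.0333). They include the genes of the NADP enzyme Idh2, the shared E3 subunit Dld, the remaining ligase subunits and the succinate dehydrogenase subunits Sdha to Sdhd. Ogdhl and Csl were removed by the filter on low counts in edgeR and limma voom. Over all 21 genes of the cycle, 19 were tested by edgeR, 1 rose (Suclg1) and 0 fell, where 4.97% of all tested genes rose and 7.74% fell. 

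**Figure D4:**
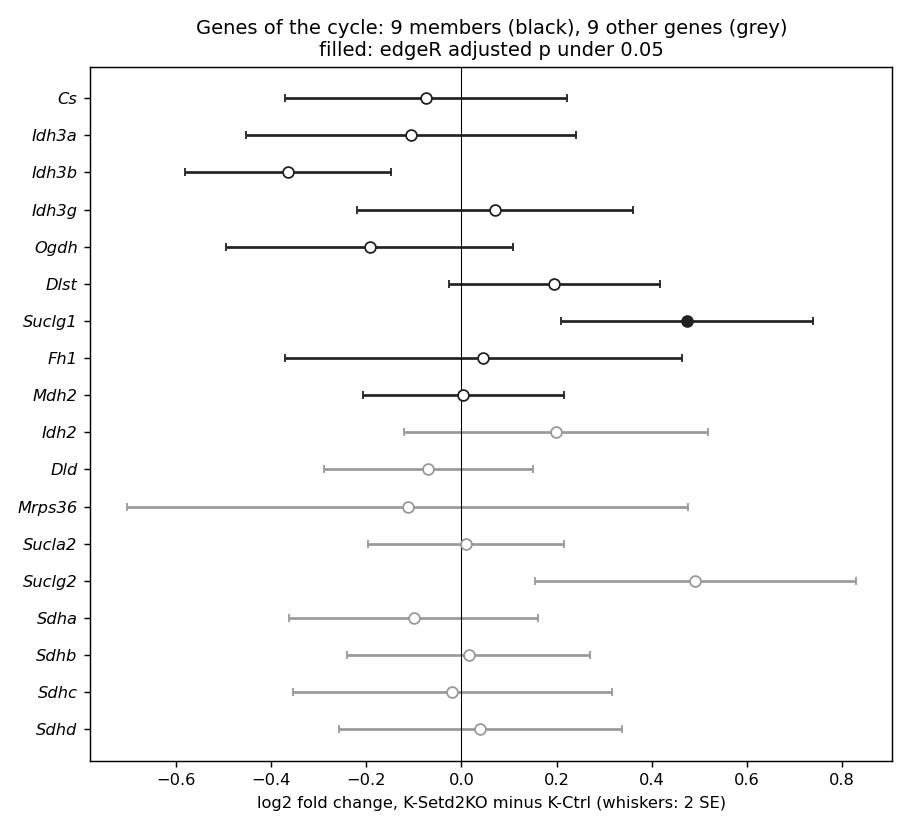
log2 fold change of K-Setd2KO over K-Ctrl (horizontal axis) for the 9 members (black) and 9 of the 10 other tested cycle genes (grey), with whiskers of 2 SE and a filled point for adjusted p under 0.05. Suclg1 at 0.47 has the filled point, and Suclg2 lies beside it at 0.49.

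The genes that feed the cycle with pyruvate were counted next. Of 14 tested, 0 rose and 0 fell by edgeR, and DESeq2 called 1 higher (Pdk1) and 1 lower (Pdp1), where it called 6.60% of its tested genes higher and 10.6% lower, with a median log2 fold change of 0.17. An unadjusted p under 0.05 was seen for 4 of 14 and no overlap for 3 of 14, near the 29.9% and 20.3% of all tested genes. Pdk1, a kinase that turns pyruvate dehydrogenase off, had 0.89 (adjusted p = 0.0733) and Pdp1, a phosphatase that turns it on, had -0.63 (adjusted p = 0.0535), each with no overlap between the groups, and neither passed by edgeR. With DESeq2 both passed (adjusted p = 0.0291 and 0.0201), as did Pdk1 with the sex term (0.0494) and Pdp1 with at least 10 counts required (0.0437) and without K-Ctrl replicate 4 (0.039). Without K-Setd2KO replicate 3, Pdk1 had a log2 fold change of 0.53. Pdhb, a subunit of that enzyme, had 0.31 (adjusted p = 0.113) and also showed no overlap. Pdk1, Pdp1, Pdhb, Got2 and Me1 were named after their values were seen. Of the 8 genes that refill the cycle from glutamine and glutamate, 7 were tested by edgeR and limma voom and 8 by DESeq2, and 0 passed by any of these tools (1 at an unadjusted p under 0.05 by each, beside 29.9% of all tested genes by edgeR), with a median of 0.03. Got2, mitochondrial aspartate aminotransferase, had 0.32 (adjusted p = 0.101), with all K-Setd2KO tumors above all controls.

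Of 15 genes for export, cytosolic counterparts and shuttles, 14 were tested, 1 rose and 2 fell by edgeR, where 4.97% of all tested genes rose and 7.74% fell, with a median log2 fold change of 0.25. At an unadjusted p under 0.05 there were 7 of 14, beside 29.9% of all tested genes, and the groups did not overlap for 3 of 14, beside 20.3%. Slc25a10, which exchanges dicarboxylates across the inner membrane, had 44.0, 39.8, 48.3 and 53.7 CPM in K-Ctrl and 61.7, 107, 86.9 and 67.3 CPM in K-Setd2KO. All K-Setd2KO tumors were above all controls (log2 fold change 0.80, SE 0.188, adjusted p = 0.0269). The call was lost without K-Ctrl replicate 1, 2 or 3 or K-Setd2KO replicate 3, with an adjusted p of up to 0.0721. Me2, a mitochondrial malic enzyme that makes pyruvate from malate, had 24.1, 34.4, 41.5 and 20.2 CPM in K-Ctrl and 13.4, 18.3, 14.7 and 11.6 CPM in K-Setd2KO.

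All K-Setd2KO tumors lay below all controls for Me2 (log2 fold change -1.05, SE 0.25, adjusted p = 0.028). The Me2 call was lost with the sex term (adjusted p = 0.055) and without K-Ctrl replicate 2 or 3 or K-Setd2KO replicate 1, 3 or 4 (up to 0.0793). Me3, the other mitochondrial malic enzyme, was scarce, with 2.15, 2.44, 1.75 and 3.84 CPM in K-Ctrl and 0.514, 1.45, 0.461 and 0.342 CPM in K-Setd2KO. It fell as well (-1.81, SE 0.515, adjusted p = 0.0494), and K-Setd2KO replicate 4 was below the 0.517 CPM that 3 counts are worth there. The Me3 call was lost with no filter on low counts (adjusted p = 0.0766), with the sex term (0.0969), after the length and GC correction (0.0695) and without each tumor in turn except K-Setd2KO replicate 2 (up to 0.118), and Me3 was not tested where at least 10 counts were required. Me1, the cytosolic form, at 0.79 (SE 0.239), was not called by edgeR (adjusted p = 0.0585), but was called by DESeq2 (0.0181), with no filter on low counts (0.048) and without K-Ctrl replicate 4 (0.0233).

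**Figure D5:**
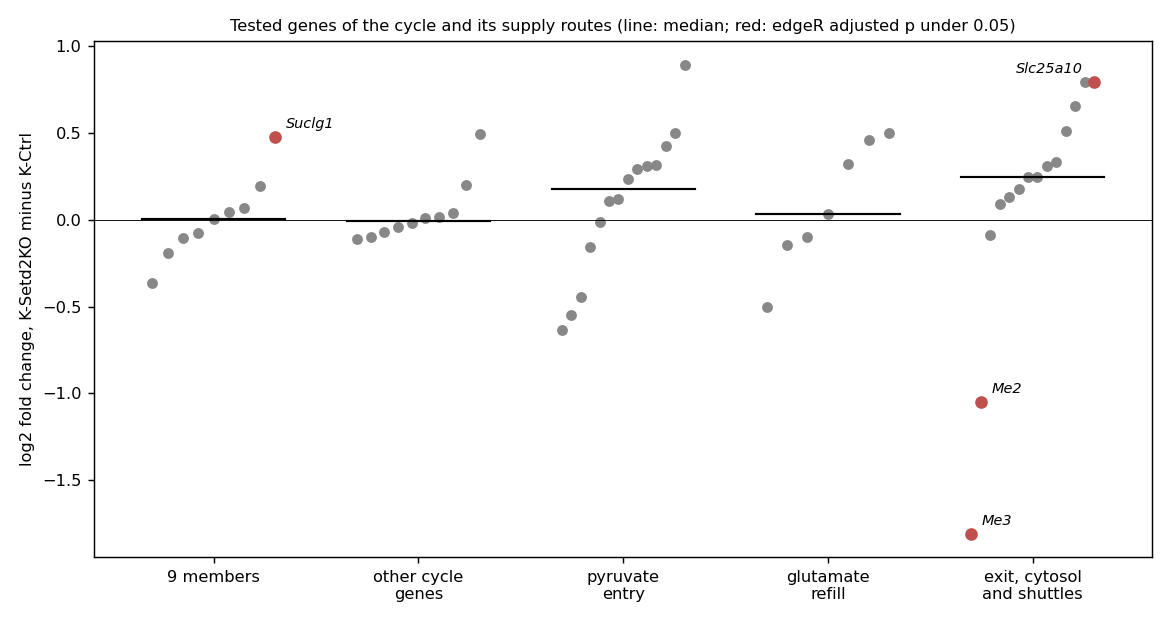
log2 fold change of K-Setd2KO over K-Ctrl (vertical axis) of every tested gene in 5 lists, the 9 members and 4 lists of related genes, with a line at each median and red points for adjusted p under 0.05. The members center on 0.00, and the red points, called by edgeR, are Suclg1, Slc25a10, Me2 and Me3.

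The tested genes outside these lists whose profile over the 8 tumors lay closest to the mean profile of the 9 members were Atp5a1, Mia3, Srsf9, Wipi2 and Tcf20. Their root mean square distance in centered log2 CPM was 0.0514, 0.0573, 0.0587, 0.0661 and 0.0683, in that order. The members themselves lay at 0.105 to 0.25 from their own mean, and the median of all tested genes was 0.386. The mean profile was built from the members, which draws it toward them. It ran only from -0.24 to 0.16, so genes that varied little lie close to it, and closeness does not show shared regulation.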

How the data were processed

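The deposited values are raw counts per gene, whole numbers with no normalization, in 1 table with a column per tumor. The submitters' processing notes name STAR 2.5.2b, featureCounts 1.5.0-p1 and GRCm38.p4; the annotation release and the strand setting are not given in the sources used here. Libraries came from a stranded poly(A) mRNA kit. Symbols came from GENCODE M21, in which 99.26% of identifiers matched. Counts were fitted in R 4.3.3 with edgeR 4.0.16 (filterByExpr, TMM factors, robust quasi-likelihood test, genotype alone, Benjamini-Hochberg over the 14929 genes kept). The study compared these groups with DESeq2, run here (1.42.0) as an alternative beside limma voom (3.58.1), other scaling, other filters, a replicate block, a sex term, a length and GC correction and each tumor left out. SE was derived from the log2 fold change and the F value of the test. Log2 CPM used a prior count of 2.

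The values of 1 gene of the cycle are not reported here by name. The members and lists were chosen with earlier results of these data known. Named genes are Setd2, the 9 members, ratio partners, genes of the 4 related lists that passed the threshold, and the 5 genes most like the members' mean profile; further genes of the lists, markers and overlapping genes were named after their values were seen. No pair of tumors in a group was alike within sampling noise (lowest chi-square 30.5 per degree of freedom). Counting error covers neither PCR copies nor tumor differences.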

Additional observations from a re-analysis of the deposited data

Results flagged for a closer look

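Of 42 sets of 4 values, each from the 4 tumors of a group, 1 held a tumor that stood apart by Dixon's criterion, where chance alone gives about 2.1. It was the Me3 level of 1.45 CPM in K-Setd2KO replicate 2, which lay far from the other 3 tumors of its group (0.342 to 0.514 CPM) and below every K-Ctrl tumor. Me3 is a mitochondrial malic enzyme with few counts in any tumor.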

How the results depend on the processing

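Of the 9 members, the number that rose was 1, and it was 0 with no filter on low counts, with at least 10 counts required, with the replicate block and with sex as a term, and 0 to 1 with each tumor left out. The number that fell was 0, and 1 (Idh3b) with DESeq2, with at least 10 counts required and after the length and GC correction. Same-numbered tumors correlated at -0.07, -0.03, 0.19 and -0.02. These values cannot show whether such tumors shared handling, and the labels give only the number. With the replicate block Suclg1 had a log2 fold change of 0.46 (adjusted p = 0.111), and the calls of Slc25a10 (0.068) and Me3 (0.0825) were lost. Over all genes the block gave 403 higher and 938 lower against 742 and 1155. Other counts over all genes were 1234 and 1977 with DESeq2, 453 and 784 with the sex term, 614 and 1009 with no filter, and 224 to 856 higher and 539 to 1284 lower with each tumor left out, the lowest without K-Ctrl replicate 3.

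Among the members, Cs, Idh3a, Idh3g, Fh1 and Mdh2 changed sign under some alternative. With each tumor left out, Cs ran from -0.158 to 0.0283, Idh3a from -0.265 to 0.0195, Idh3g from -0.0178 to 0.165, Fh1 from -0.114 to 0.203 and Mdh2 from -0.0439 to 0.0455. Mdh2 was -0.00322 with DESeq2, -0.0285 with at least 10 counts, -0.0651 with the sex term, -0.0158 with the length and GC correction and -0.0535 relative to its chromosome. In male tumors alone, where K-Setd2KO has 1 tumor, the ratio differences were 0.00888 for Idh3b over Idh3a, 0.49 for Idh3g over Idh3a, 0.60 for Dlst over Ogdh, 0.65 for Suclg1 over Sucla2 and -0.37 for Mdh2 over Mdh1. In female tumors alone, where K-Ctrl has 1 tumor, these were -0.32, 0.0931, 0.18, 0.35 and -0.0955 in the same order, and Cs over Mdh2 was 0.0297 (-0.23 in males). Neither split was tested. Suclg1 over Suclg2 ran from -0.169 to 0.127, Dlst over Ogdh from 0.27 to 0.46 and Cs over Mdh2 from -0.148 to -0.0099 with each tumor left out. Level steps turned within K-Ctrl for Idh3g over Idh3a (-0.0615) and Suclg1 over Idh3b (-0.40), and within K-Setd2KO for Ogdh over Dlst (-0.17) and Fh1 over Suclg1 (-0.0476). With each tumor left out, Ogdh over Dlst ran from -0.0512 to 0.0760, Suclg1 over Idh3b from -0.0624 to 0.0882 and Idh3g over Idh3a from -0.0216 to 0.0672. Apart from the alternative's own construction, the cause of these changes was not tested. The lowest depth, 5806599 counts, limits the precision of the scarce genes, Me3 above all.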
